A study of Homo sapiens and Mus musculus with 9 samples.

Results

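The ZNF genes are the human genes whose symbol is ZNF followed by a number, the largest named set of C2H2 zinc finger genes. Members were taken by symbol from 4 lists of small RNA peaks, made for the sense and the antisense strand of mRNAs in 2 small RNA libraries of HEK293, a human embryonic kidney cell line. The rule gave 141 genes, each with 1 transcript, of 5745 genes that had a peak and a symbol. The small RNA libraries came from wild-type cells with no treatment given. RNA fragments that passed through a first binding column were stripped of 5′ phosphates. In the cap library the fragments were then decapped, so that a capped 5′ end could be ligated. In the total library they were phosphorylated again. Peaks of the cap library are called capped below, and a cap on each RNA was not tested.

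Ribosome footprints of the same 141 transcripts were read from 4 Ribo-seq libraries of wild-type HEK293. One is an untreated control and one comes from starved cells. The remaining pair, trans1 and trans2, carry 1 and the same label, starvation plus a transfected trans-RNA directed at ATF4, whose protein switches on amino acid stress genes. The labels do not say whether trans1 and trans2 are repeats, and a starved library with a control RNA was not analysed here, so the trans-RNA and the transfection cannot be told apart. The files used here pair transcripts with symbols through the peak lists alone, which do not name ATF4, so its footprints were not analysed here. Each of the 9 groups of the series holds 1 library. No difference between groups could therefore be set against replicate error, no test was run, and intervals are exact 95% binomial (Clopper-Pearson) intervals of counting error only. The recovered depth was 6115555 to 10618421 footprints per library. The other 3 libraries, from liver, were not used.

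A C2H2 zinc finger is a short fold held by a zinc ion between a pair of cysteines and a pair of histidines, and a row of such fingers reads DNA bases. Many ZNF proteins also carry a KRAB domain, which recruits the corepressor TRIM28 (KAP1) and through it histone methyltransferases, HP1 proteins and deacetylases, and many of these KRAB proteins silence transposable elements. The genes arose by repeated duplication and lie in clusters, above all on chromosome 19. In the RefSeq annotation (GRCh38.p14) 51 of the 141 members, 36.2%, were on chromosome 19, against 6.27% of the 5694 peak genes found in that annotation. Of the 509 protein-coding ZNF genes in RefSeq, 27.7% (interval 23.9 to 31.8) had a peak, a share close to the 28.4% of all 20056 protein-coding genes. The share was 20.7% (15.8 to 26.3) of the 246 ZNF genes of chromosome 19 and 34.2% (28.5 to 40.3) of the 263 on other chromosomes.

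The clearest class of member peak was a capped sense peak in the 5′ UTR. The promoters of 5 members with many reads at such a peak are shown. ZNF397, with 21 reads at its peak, ranks with them but is not printed. RefSeq promoter windows (GRCh38.p14, 250 nt before to 50 nt after the annotated start) were matched for 114 of the 141 members. The lines below give the 30 bases that end at the annotated first transcribed base, 5′ to 3′ on the gene's strand, with that base in capitals. They run from chr20:18288498-18288527 (plus strand) for ZNF133, chr19:57527327-57527356 (plus) for ZNF549, chr16:3112557-3112586 (plus) for ZNF205, chr17:16569204-16569233 (minus) for ZNF287, and chr4:128092-128121 (plus) for ZNF718.
ZNF133: tggtccgggcgctgtgccgaggattcgggG
ZNF549: aatcttccggcgtctttccggtggtggtcG
ZNF205: acttcctgtcttccctactcccagtctccA
ZNF287: cgcgcagcgttcctctggcgcacatgcgcA
ZNF718: tactctaacccctaagaatgtagaggcacA
The first base was a purine after a pyrimidine, the common base pair at a transcription start, in 4 of these 5 windows, and the ZNF133 window has G after G. Over all members with a capped sense 5′ UTR peak and a promoter entry the pair was present in 48 of 52, 92.3% (81.5 to 97.9). It was present in 79.0% of the 62 members with other peaks only, and in 75.1% of the promoters of 15843 protein-coding genes. Of the 1643 coding genes that also had a capped sense 5′ UTR peak, 79.1% (77.0 to 81.0) had it, and of 316 ZNF genes without a peak 75.6%.

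The ETS core CCGGAA, the binding letters of ETS factors, differed most in percentage points between ZNF promoters and the average coding gene among the 6 motifs searched. It was found on either strand in 56 of 114 member promoters, 49.1% (39.6 to 58.7), against 22.9% of coding genes and 17.6% of all 27305 promoters of that length. ZNF genes without a peak had it as often, in 50.9% of 316, and so did the 52 members with a capped 5′ UTR peak, in 50.0%. The next lines show it in capitals, or its reverse complement TTCCGG, in 30 bases of 3 member promoters, at chr19:57527326-57527355 (plus) for ZNF549, chr16:3112480-3112509 (plus) for ZNF205 and chr20:25697039-25697068 (minus) for ZNF337, 3 genes with the motif that had many capped 5′ UTR reads.
ZNF549: gaatcttccggcgtctTTCCGGtggtggtc
ZNF205: gagactccacacCCGGAAccctcaaaaccg
ZNF337: tccttccaaggaTTCCGGgtcgcgcagtcc
The CCAAT box (CCAAT) was present in 48.2% of member promoters against 36.4% of coding genes, and the GC box (GGGCGG) in 67.5% against 58.5%. A closer set is the 1643 coding genes that also had a capped sense 5′ UTR peak, against which the 52 members of that kind are read. There the ETS core was in 33.3% (members 50.0%), the CCAAT box in 43.5% (members 51.9%) and the GC box in 72.6% (members 65.4%). The intervals of the 52 members were 35.8 to 64.2 for the ETS core, 37.6 to 66.0 for the CCAAT box and 50.9 to 78.0 for the GC box. Those of the CCAAT box and the GC box take in the shares of the closer set, so no difference is read for these motifs. The TATA box (TATAAA) was present in 4.39% of the 114 member promoters against 9.63% of all coding genes. In the closer set it was in 6.82% (members 5.77%). The cyclic AMP response element (TGACGTCA) was present in 2.63% against 2.59% of all coding genes, and in 3.16% of the closer set (members 3.85%). For the core ACTACAA of ZNF143 sites the shares were 3.51% against 3.14%, and 3.96% in the closer set (members 1.92%). None of the 6 motifs contains another, matches of different motifs may overlap, and both strands were searched. These are matches of letters, many ZNF promoters are related by duplication, and the deposited lists give peak positions relative to the start codon, so the peaks were not placed on these windows.

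On the sense strand the cap library held 138 peaks on 82 members with 11820 reads, and the total library held 93 peaks on 45 members with 15022 reads. On the antisense strand the cap library held 45 peaks on 31 members with 1347 reads, and the total library 50 peaks on 39 members with 792 reads. The lowest listed peak had 4 reads in every list. Most members were seen in 1 way only: 90 had sense peaks alone, 33 had antisense peaks alone, and 18 had both. The largest single class was 55 members with capped sense peaks and no other, followed by 22 with sense peaks in the total library alone.

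One gene, ZNF354B, held 88.8% of the members' capped sense reads and 96.5% of their sense reads in the total library, so shares by region are given without it. Capped sense peaks of the other 81 genes lay in the 5′ UTR in 72 of 107 cases, 67.3% (57.5 to 76.0), in the coding sequence in 15.0% (8.80 to 23.1) and in the 3′ UTR in 17.8% (11.0 to 26.3). With ZNF354B the 5′ UTR share was 52.9% and the 3′ UTR share 35.5%. In the total library the order was turned over. Of 51 sense peaks of 44 genes, 15.7% (7.02 to 28.6) lay in the 5′ UTR, 45.1% (31.1 to 59.7) in the coding sequence and 39.2% (25.8 to 53.9) in the 3′ UTR. Over all genes the 5′ UTR held 61.8% of 4499 capped sense peaks and 12.8% of 3403 sense peaks of the total library, so the members follow the general pattern. The coding share of capped sense peaks was lower than the 24.0% over all genes, and the members' interval reached up to 23.1%. That interval counts several peaks of a gene as separate. With 1 peak per gene the share was 19.8% (11.7 to 30.1) of 81 genes, an interval that takes in the 26.9% over all genes. Other gene families gave 5′ UTR shares of capped sense peaks of 68.2% (SLC transporters, 66 peaks), 72.4% (other C2H2 families, 29 peaks) and 63.9% (RNF and TRIM genes, 36 peaks).

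**Figure D1:**
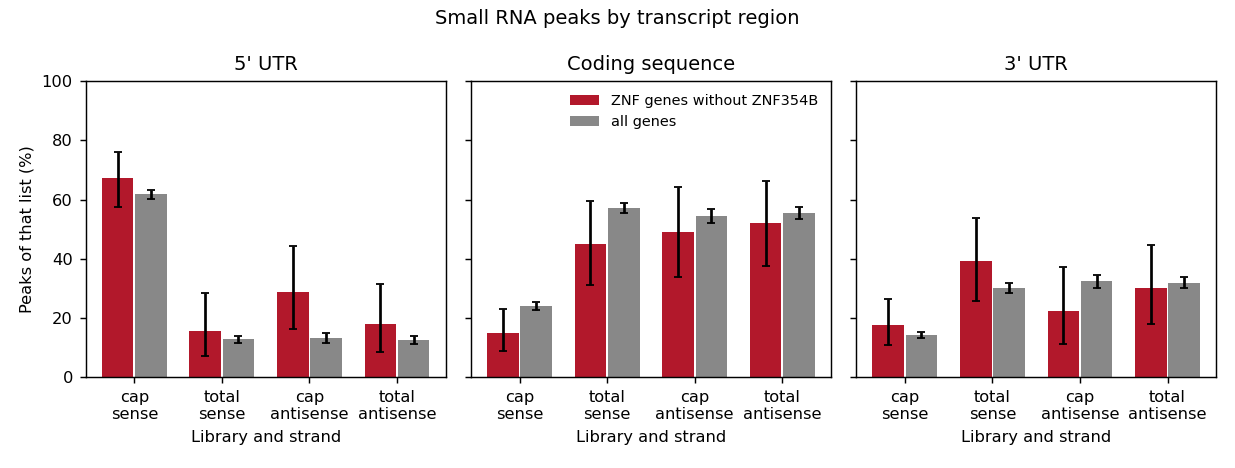
Share of small RNA peaks (%, y axis) in each transcript region by library and strand, for ZNF genes without ZNF354B (red) and all genes (grey). Bars are shares and lines their exact 95% binomial intervals; the cap sense bars stand at 67.3% and 61.8% in the 5′ UTR, and the cap antisense bars differ there, at 28.9% and 13.2%.

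Capped sense 5′ UTR peaks of members were mostly weak. The strongest had 30 reads at position -333 from the start codon of ZNF133, a KRAB repressor, with 22 further reads at -331. ZNF549 had 29 reads at -93, ZNF205 had 22 at -376, ZNF287 had 21 at -267, ZNF397 had 21 at -135 and ZNF718 had 20 at -163. Among members with a known role, ZNF24 had 15 reads at -153, ZNF622, a maturation factor of the large ribosomal subunit, had 5 at -135, ZNF335, a coregulator tied to a histone methyltransferase complex, had 4 at -129, and ZNF91, a KRAB repressor of SVA elements, had 4 at -71. The median position over the 72 peaks was -230.5 nt, against -136 nt over all genes. The members' median thus lay farther upstream of the start codon, but the ranges overlap. Their quartiles were -348 and -134 nt, against -286.5 and -57 nt over all genes. Neighbouring peaks of a gene count as separate here, and a median with 1 peak per gene was not computed.

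Outside the 5′ UTR the strongest capped sense peaks on members were in the coding sequence of ZNF229 (218 reads at 2680), in the 3′ UTR of ZNF69 (78 reads at 1895) and in the coding sequence of ZNF76 (76 reads at 290). ZNF76, a relative of the snRNA gene activator ZNF143, had nearly the same number in the total library, 75 reads. ZNF229 had 22 there, and ZNF69 had no listed peak in that library. Next came the coding sequence of ZNF516 (48 reads at 1907), the 3′ UTR of ZNF471 (32 reads at 2481), and the coding sequences of ZNF445 (32 reads at 2128) and ZNF92 (31 reads at 524). In the total library the strongest sense peaks after ZNF354B and ZNF76 were on ZNF319 (38 reads at 2332), ZNF648 (31 at 2319), and ZNF229 and ZNF704 (22 each). The region is as the authors' lists give it. On members with a recovered coding length, 6 of 48 peaks called coding lay beyond that length, 12.5%, against 9.44% over all genes.

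ZNF354B, a KRAB zinc finger gene, carried a long run of sense peaks in its 3′ UTR, and a single capped peak of 4 reads in its 5′ UTR at -143. It was the fifth gene by sense reads in both libraries, with 1.65% of all capped sense reads and 2.7% of those in the total library. The cap library had 30 peaks between positions 2258 and 2321, and 79.1% of their 10488 reads stood at the single position 2262, with 8297 reads. The total library had 42 peaks between 2262 and 2394 and only 51 reads at 2262. Its reads stood at 2296 (5744 reads), 2294 (3335), 2288 (3024) and 2284 (818), and 98.4% of its 14489 reads lay between 2284 and 2323. The cap library had 1265 reads at 2284 but 108, 18 and 42 at 2296, 2294 and 2288. The 2 libraries thus had most reads at different positions of the same stretch, with a ratio of cap to total reads of 163 at 2262 and of 0.0188 at 2296. No gene of a small RNA class lies inside the span of ZNF354B in RefSeq, and 7 of the 141 members have one.

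**Figure D2:**
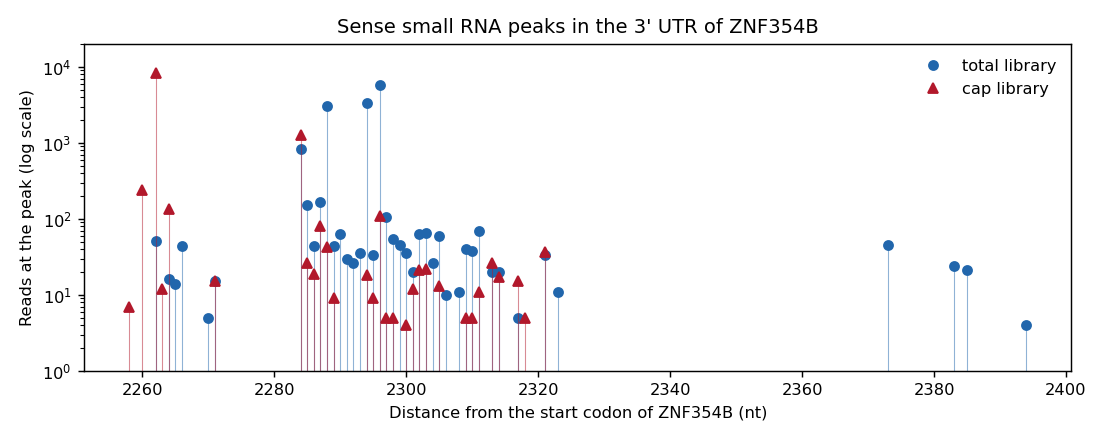
Sense small RNA peaks in the 3′ UTR of ZNF354B, by distance from the start codon (x axis, nt) and reads at the peak (y axis, log scale), in the cap (triangles) and total (circles) library. The highest cap peak stands at 2262 with 8297 reads, and the highest total peak at 2296 with 5744 reads.

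Antisense peaks were fewer and ZNF205 led them. It had 595 capped antisense reads at position -375 in its 5′ UTR, 45.0% of the members' antisense reads in that library counting the 11 at -376, and 6 reads at -375 in the total library, where its strongest antisense peak was another, with 29 reads at 774 in the coding sequence. A capped sense peak of the same gene with 22 reads stood at -376, so peaks of both strands in the cap library were listed 1 nt apart. In RefSeq the antisense gene ZNF205-AS1 overlaps ZNF205 on the other strand. In the total library the strongest antisense peak was on ZNF236, in the 3′ UTR at 9031, with 251 reads, and 44 more at 9032; a noncoding gene overlaps ZNF236 on the other strand in RefSeq. Other strong capped antisense peaks were in the coding sequence of ZNF304 (88 reads at 1022), the 3′ UTR of ZNF510 (65 at 4080), the coding sequence of ZNF445 (57 at 2126), the 5′ UTR of ZNF707 (51 at -372) and the coding sequence of ZNF853 (44 at 129).

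The region of antisense peaks differed from that over all genes mainly in the cap library. There 13 of 45 member peaks, 28.9% (16.4 to 44.3), lay in the 5′ UTR against 13.2% of 1798 over all genes. Among the other families the share was 6.45% of 31 peaks (SLC), 14.3% of 14 (other C2H2) and 8 of 16 (RNF and TRIM). In the total library 18.0% (8.58 to 31.4) did, against 12.6% of 2409. The coding sequence held 48.9% and 52.0% of member antisense peaks in the cap and total library, and 54.4% and 55.5% over all genes. A gene annotated on the other strand overlapped 12 of 40 members with an antisense peak and a known strand, 30.0% (16.6 to 46.5), and 25 of 74 members without one, 33.8% (23.2 to 45.7). Overlap was counted for the gene and not at the peak. Each interval takes in the other share, so no difference is read from these counts.

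Without ZNF354B, 13 sense positions were listed in both libraries, 12.1% (6.63 to 19.9) of the cap peaks and 25.5% (14.3 to 39.6) of the total peaks, against 23.2% and 30.6% over all genes. On the antisense strand 20 positions of 19 genes were listed in both, 44.4% of the cap peaks and 40.0% (26.4 to 54.8) of the total peaks, against 51.8% and 38.6% over all genes. The share of cap peaks found again in the total library was thus higher for antisense than for sense peaks. At the shared antisense positions the cap library had more reads at 15, fewer at 3 and equal reads at 2, with a median ratio of cap to total of 2.34. ZNF264 (28 against 38 reads), ZNF395 (16 against 35) and ZNF366 (5 against 11) were the 3 with fewer. Over antisense positions of other genes the median ratio was 1.29. At the 13 shared sense positions the cap library had more reads at 8 and fewer at 4, with a median ratio of 1.88 against 1.40 for other genes. Read totals of the small RNA libraries were not used, so these ratios are of listed reads and carry any difference in depth.

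**Figure D3:**
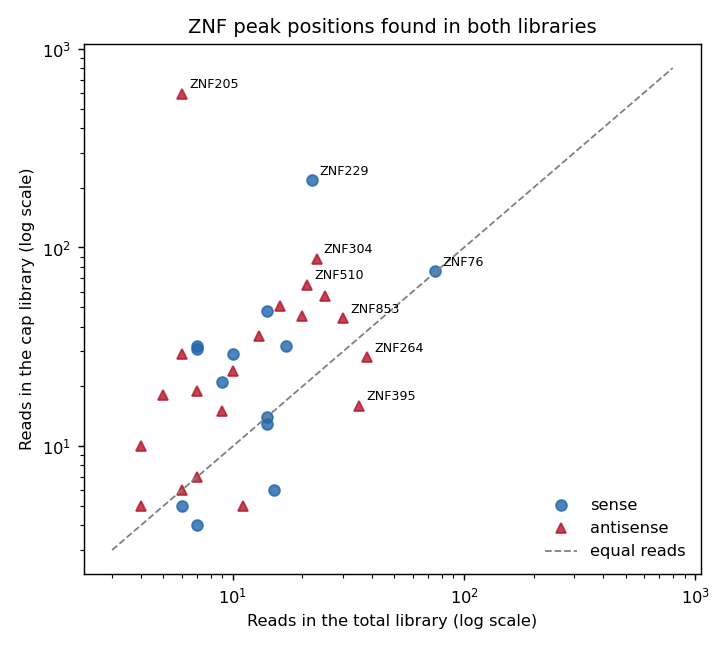
Reads at ZNF peak positions listed in both small RNA libraries, without ZNF354B: total library on the x axis and cap library on the y axis, both log scales, sense as circles and antisense as triangles. ZNF205 stands far above the line of equal reads (595 against 6), ZNF76 lies on it (76 against 75), and ZNF264 and ZNF395 lie below.

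Sense and antisense peaks of a member could lie side by side. In the cap library 6 of 45 antisense peaks, 13.3% (5.05 to 26.8), had a sense peak of the same gene within 3 nt, against 3.0% over all genes, and in the total library 2 of 50, 4.0% (0.488 to 13.7), against 1.58%. Some are neighbouring positions, 2125, 2126 and 2127 on ZNF445 and -376 and -375 on ZNF205. The cap interval counts them as separate peaks. All of these peaks belonged to 3 genes only. They are ZNF205, described above; ZNF445, which helps keep imprinted loci methylated, with 57 antisense reads at 2126 and 32 sense reads at 2128; and ZNF76, with 6 antisense reads at 289 and 76 sense reads at 290. ZNF445 and ZNF76 showed the pair in both libraries, with 25 antisense and 17 sense reads, and 6 and 75, in the total library.

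Footprints could be counted for 85 of the 141 members. Another 33 were listed but had too few positions with reads, and 23 were in no density table, ZNF24 and ZNF76 among them, so the counted members are those with more footprints. Footprints were scaled to the same library total (CPM), and levels of different genes are compared as CPM per kb of coding length. The median member had 7.46 CPM per kb in control and 7.16 in starvation, and 9.23 and 8.54 in trans1 and trans2, against 23.1, 23.3, 22.2 and 24.7 over all counted transcripts. The other C2H2 families stood at the same low level, 7.25 in control over 16 transcripts, and SLC genes at 16.4 over 51. RNA-seq of these HEK293 cells was not analysed here, so the amount of mRNA and its translation cannot be told apart, and neither can fewer cells and less RNA per cell.

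The highest member in control was ZNF354B, with 485 CPM per kb, followed by ZNF664 (182), ZNF326 (66.2), ZNF740 (57.0, named after its value was seen), ZNF346 (52.0), ZNF121 (43.1), ZNF622 (34.5) and ZNF200 (32.0). ZNF326 is an RNA-binding protein of a complex that links transcription to splicing, and ZNF346 binds double-stranded RNA, so neither is a typical DNA-binding ZNF. The lowest counted member stood at 1.25. For ZNF354B 4739 footprints were assigned in control and 11029 in starvation, but only 16 and 18 of them lay in the windows around its start and stop codons, at most 0.338% and 0.163%, since a recovered coding length can be too short and then lowers the total. Over members long enough for separate windows the median was 36.4% in control. Where the other ZNF354B footprints lie is not shown by the tables used here, and its level is not evidence of translation of its coding sequence.

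Starvation against control compares footprints of starved and untreated cells, and over the family the ratios were centred on 0. The median log2 ratio of CPM + 1 was 0.03 over the 85 members and -0.00249 over all 10262 transcripts compared, with 44 members above 0 and 41 below. At least 2-fold higher were 3 members, where 2.65% of all transcripts were, and at least 2-fold lower was 1, where 1.9% were. These shares, 3 and 1 of 85, are near the background. ZNF557, a KRAB protein, had 6.22 CPM in control and 18.9 in starvation, a log2 ratio of 1.46 (interval of the read ratio 1.19 to 2.04). ZNF354B had 446 and 1179 CPM (1.40, 1.35 to 1.45), and ZNF471, also a KRAB protein, 5.93 and 13.3 CPM (1.04, 0.71 to 1.62). ZNF326 went the other way, with 116 and 43.6 CPM, and its log2 ratio of -1.39 (-1.58 to -1.25) rested on 1231 and 408 footprints. Near the threshold stood ZNF136 (-0.93), ZNF793 (-0.85) and ZNF800 (-0.82).

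For the ZNF354B ratio the start window went against the whole, with a log2 ratio of -0.54 on a handful of reads. For ZNF557 the stop window alone gave -1.45, while the start window gave 1.43. ZNF326 kept its direction in both, at -1.81 and -1.35. Of the 4 members past 2-fold, ZNF326 thus stands on the most reads in the windows. Among transcripts with reads at 8 or more positions in each library, 1 member was 2-fold higher and 1 lower.

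**Figure D4:**
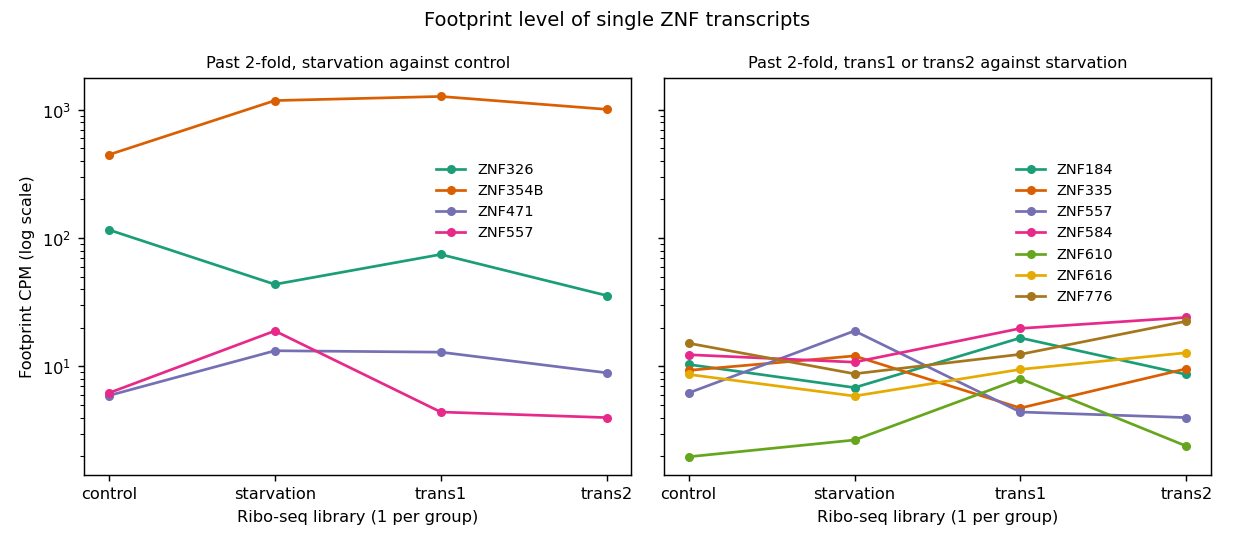
Footprint level (CPM, log scale) of the ZNF transcripts past 2-fold in starvation against control (left) and in trans1 or trans2 against starvation (right), in the 4 Ribo-seq libraries with 1 point per library. ZNF326 stands at 116 CPM in control and 43.6 in starvation, and ZNF557 stands at 18.9 CPM in starvation and at 6.22 or less in the other libraries.

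In trans1 against starvation, which asks what the trans-RNA transfection did in starved cells, members as a group stood slightly higher. Their median log2 ratio was 0.21, with 59 of 85 above 0, against a median of -0.08 and 41.6% above 0 over all 10227 transcripts. The shift was alike for the 31 members on chromosome 19 (0.25) and the 54 on other chromosomes (0.21). The other families had medians of -0.18 (SLC), 0.03 (other C2H2) and 0.10 (RNF and TRIM). At least 2-fold higher were 2 members (background 1.56%) and at least 2-fold lower were 2 (background 1.27%). ZNF184, a KRAB protein, had 6.84 CPM in starvation and 16.7 in trans1, a log2 ratio of 1.17 (0.82 to 1.76). ZNF610 had the highest ratio, 1.30 (0.86 to 2.34), on only 25 and 49 footprints. ZNF557 went from 18.9 to 4.41 CPM, a log2 ratio of -1.88 (-2.74 to -1.51), and ZNF335 from 12.1 to 4.74 CPM, -1.19 (-1.99 to -0.75). In the start window alone ZNF335 had a log2 ratio of 0.40, the other way, and in the stop window alone ZNF557 had 1.14. Neither gene had reads at 8 or more positions in each library, below which recovered reads of a library can come out too low, and with that demand 0 members were 2-fold lower. The family median was 0.02 in the stop window alone.

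In trans2 against starvation the family median was 0.06, close to the 0.04 over all 10266 transcripts, with 51 of 85 members above 0 against 54.3% of all. It was 0.19 in the start window alone and 0.21 in the stop window alone, where trans1 gave 0.21 and 0.02. SLC genes had a median of 0.17 here, against -0.18 in trans1. At least 2-fold higher were 3 members (background 1.96%): ZNF776 with 8.76 and 22.5 CPM and a log2 ratio of 1.27 (0.97 to 1.76), ZNF584 with 10.8 and 24.1 CPM and 1.09 (0.80 to 1.52), and ZNF616 with 5.88 and 12.8 CPM and 1.00 (0.63 to 1.63). At least 2-fold lower was 1 member (background 0.341%), ZNF557, with 3.99 CPM in trans2 and a log2 ratio of -2.0 (-2.85 to -1.68). With reads at 8 or more positions in each library demanded, 0 members were 2-fold lower. The intervals of these ratios take in counting error and nothing of the spread between cultures.

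Both trans-RNA libraries are compared with the same starvation library, so a member that is high or low in that library differs from both. With that limit, 4 of 85 members stood at least 1.5-fold higher in each, where 2.26% of 10224 transcripts did: ZNF584 (0.82 and 1.09), ZNF616 (0.61 and 1.00), ZNF292 (0.62 and 0.77) and ZNF510 (0.68 and 0.63). At least 1.5-fold lower in each were 3 members, where 0.597% of transcripts were: ZNF557 (-1.88 and -2.0), ZNF385B (-0.64 and -0.63) and ZNF699 (-0.67 and -0.60). ZNF385B rested on 65, 25 and 31 footprints in starvation, trans1 and trans2, with intervals of -1.49 to -0.08 and -1.42 to -0.11. ZNF699 rested on 69, 26 and 34, with intervals of -1.50 to -0.12 and -1.34 to -0.09. The count of 3 leans on these low genes and on ZNF557, so it is not read as a family difference. Against control, the 4 higher ones had ratios of starvation to control between -0.51 and -0.18, and the 3 lower ones between 0.36 and 1.46. For ZNF557, at 6.22, 18.9, 4.41 and 3.99 CPM in control, starvation, trans1 and trans2, the starvation library is high and the other 3 are close to each other. These values carry the limits given above, few positions and a stop window that goes the other way.

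Set against control, trans1 had 5 members at least 2-fold higher (background 3.53%), which were ZNF610, ZNF354B, ZNF276, ZNF766 and ZNF471, and 1 at least 2-fold lower (background 4.52%), which was ZNF213 with 16.7 and 7.36 CPM. In trans2 1 member was at least 2-fold higher (background 3.69%), ZNF354B with a log2 ratio of 1.17, and 1 was at least 2-fold lower (background 0.915%), ZNF326 with 35.7 CPM and -1.67. With reads at 8 or more positions in each library demanded, 2 members were 2-fold higher in trans1 and 0 in trans2. In the start window alone ZNF354B stood at -1.04 in trans1 and -0.17 in trans2 against control. The family medians were 0.16 and 0.14, against -0.06 and 0.05 over all transcripts, and in the stop window alone they were -0.12 and -0.0493. ZNF326 stood lower than control in each of the 3 starved libraries, at 43.6, 74.6 and 35.7 CPM against 116.

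Of the members with a textbook role, ZNF335 passed 2-fold in trans1, as given above, and the others counted stayed under it. ZNF622 had 49.6 CPM in control and then 45.5, 47.9 and 45.9 in the starved libraries in the order above, ZNF148, a factor for GC-rich promoters, had 29.4, 23.1, 31.2 and 26.8, and ZNF91 had 9.51, 8.02, 11.4 and 9.59. ZNF462, a large chromatin protein of early development, was lower in each starved library, with 41.4, 35.3, 26.3 and 28.5. ZNF664, the second highest member per kb, had 143, 188, 115 and 174 CPM, a log2 ratio of -0.70 in trans1 against starvation. ZNF318 and ZNF521 were listed without enough positions to count.

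**Figure D5:**
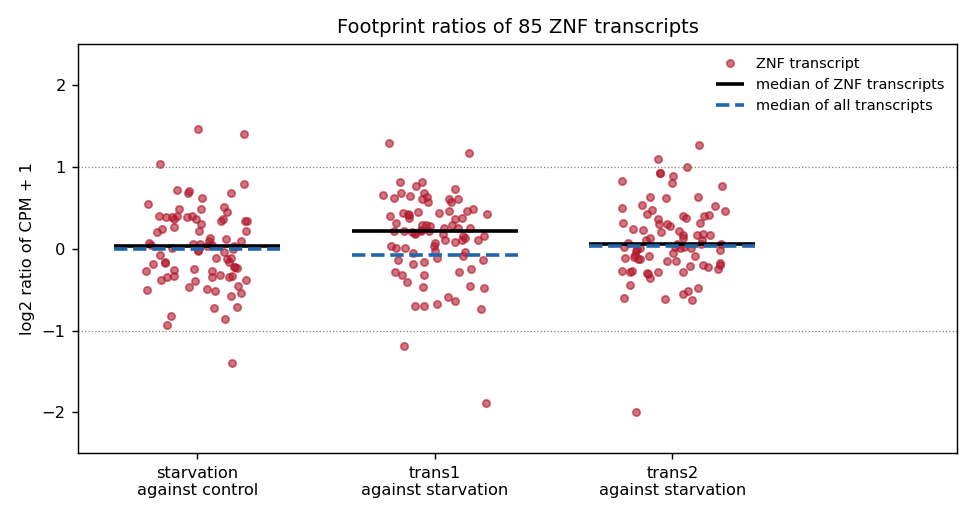
log2 ratio of CPM + 1 (y axis) of the 85 counted ZNF transcripts in 3 comparisons (x axis), 1 point per transcript; dotted lines mark 2-fold. Black lines are the members' medians (0.03, 0.21, 0.06) and dashed blue lines the medians of all transcripts (-0.00249, -0.08, 0.04).

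Around start and stop codons the members' footprints kept less of the triplet rhythm of translation than the average transcript. Of coding footprints in the windows, 77.8% (76.7 to 78.8) lay in the main frame in control and 76.3% in starvation, with 70.6% and 74.8% in trans1 and trans2, against 87.6%, 88.5%, 86.3% and 86.4% over all transcripts. Those pooled shares weigh highly translated genes most. The median transcript with at least 10 such footprints had 78.6% in the main frame among 83 members in control and 84.6% among all 10159, and 72.6% against 81.7% in trans1. Members also had more of their start window before the start codon, 12.4% (11.3 to 13.4) in control and 12.2% in starvation, with 10.4% and 9.59% in trans1 and trans2, against 7.22%, 5.98%, 6.17% and 6.51%. Depth moves with these values: the median counted member had 147 footprints in control and the median transcript 327. Among transcripts with at least 10 CPM in every library the control shares in the main frame were 77.9% and 87.7%. The part of depth in the difference was not tested.

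The single highest position held a median of 16.4% of a member's window footprints in control and 24.2% in starvation, with 26.3% and 15.6% in trans1 and trans2, against 12.4%, 16.7%, 18.9% and 12.3% over all transcripts. Members had fewer reads, with a median of 147 footprints in control against 327 over all transcripts. Among transcripts with at least 10 CPM in every library it was 14.5% for 51 members and 11.0% for all 7917 in control. The part of depth in this share was not tested. At the start codon the highest mean density of members lay at position -12 in starvation, as it did over all transcripts in each library, with reads there in 20 of 108 members. In control, trans1 and trans2 the members' highest mean lay inside the coding sequence, at 205, 60 and 253, and no profile was read from so few reads. Few small RNA peaks fell inside these windows. On ZNF292 a capped sense peak with 5 reads stood at -2, and 26 of its 54 start window footprints in control, 14 of 25 in starvation, 28 of 31 in trans1 and 10 of 20 in trans2 lay within 15 nt of it. On ZNF346, with a capped sense peak at 2, the numbers were 2 of 101, 2 of 73, 11 of 61 and 1 of 77, and on ZNF830, with one at -27, they were 0 of 74, 96, 78 and 71. On ZNF7, with a sense peak of the total library at 131, they were 14 of 74, 1 of 39, 7 of 32 and 13 of 55. Near the antisense peaks of ZNF792 and ZNF853 there was 1 footprint in all, on ZNF853 in trans1.

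KRAB proteins act through TRIM28 and its partners, and of 30 such corepressor genes 15 had a small RNA peak and 13 had counted footprints. By the 2-fold rule of size, 0 of the 13 were past it in starvation against control or in either trans-RNA library against starvation, where 0.341% to 2.65% of all transcripts were in a given direction, so a count of 0 among so few genes is near the background. TRIM28, the scaffold, had 228 CPM in control and 154, 129 and 174 in the 3 starved libraries, and the others follow in that order. The HP1 genes CBX1 (376, 605, 594 and 439) and CBX5 (264, 461, 396 and 330) were higher in starvation, with log2 ratios of 0.68 and 0.80. SETDB1, the histone methyltransferase, had 19.5, 27.3, 26.3 and 26.1, and its partner ATF7IP 40.5, 32.9, 49.1 and 33.7. Of the deacetylase complex, HDAC1 (204, 170, 140 and 154) was lower in each starved library, RBBP4 was lower in trans1 (280, 261, 178 and 275), and the remodeller CHD3 was higher in each (50.4, 76.7, 105 and 80.7). ATRX, a remodeller of silent chromatin, stood highest in trans1, at 109 CPM against 39.5 in control. CHD3 and ATRX were at least 2-fold higher in trans1 against control (background 3.53%), with log2 ratios of 1.05 and 1.44. Over the 13 genes the median log2 ratio was -0.10, -0.22 and -0.06 in the 3 comparisons, with 6, 4 and 4 genes above 0.

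The authors' deposited table of log2 fold changes per open reading frame lists 102 frames on 62 members, of which 37 were upstream frames, 24 internal frames and 24 truncated forms of the coding sequence. For the upstream frames the authors' deposited table gives a median of 0.10 for starvation against control, beside -0.14 over all 6143 upstream frames. For trans1 and trans2 against starvation the authors' deposited table gives -0.43 and -0.22 there, beside -0.33 and -0.09. The 37 upstream frames lie on 26 members, so a gene can count more than once. All 8 frames of ZNF664, most of them upstream, stand below 0 in trans1. A median with 1 frame per gene was not computed, so these upstream medians are not read as a family difference. For the truncated coding forms, which stand closest to the main protein, the authors' deposited table gives medians of -0.02, -0.01 and -0.01, within -0.54 and 0.15 for every member, beside -0.03, -0.27 and -0.10 over all 9417 truncated frames. At least 2-fold higher in the authors' deposited table were 3, 1 and 0 of the 102 frames (background 2.64%, 0.719% and 0.74%), and at least 2-fold lower 2, 6 and 10 (background 4.74%, 7.66% and 4.35%), with values rounded to 9 decimals so that 3 frames at -1 in trans2 count. ZNF664 has 8 frames, the most of any member, and its upstream frames numbered 5 and 8 stand at -1.26 and -1.23 in trans1 in the authors' deposited table. For ZNF557 the authors' deposited table lists a truncated frame alone, at -0.04, -0.03 and -0.02, so the difference in its CPM is not seen there. For ZNF326 the truncated frame stands at -0.38 in starvation in the authors' deposited table. The sources used here do not give the scaling behind these values.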

How the data were processed

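Members and gene lists were chosen with earlier results of these data known. Samples were grouped by title, with 1 library per group. The submitters' processing notes list cutadapt 2.8, STAR 2.7.10a, Bowtie 1.2.3 and bcl2fastq 2.20.0.422 without saying what each did. For the HEK293 Ribo-seq samples they name GRCm39, a mouse build, although the transcript identifiers are human, so the build used is unsettled. The sources used here give no build for small RNA and no offset for footprint positions.

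In the density tables that the authors deposited, footprints around start and stop codons are a signal. Values of a transcript in a library are multiples of 1 read's worth, the coding length over the transcript's reads, and reads were recovered for transcripts with at least 8 positions in at least 2 libraries, 10281 of 16984. Where the recovered length is shorter than the real one by a whole factor, total reads of that transcript are too low by the same factor in all 4 libraries, and reads per length are not affected. In a library with fewer positions, what 1 read is worth can come out too large, which lowers reads in that library alone. The read recovery was tested on simulated data. CPM is a transcript's recovered reads as a share of the library's, scaled to 1000000. The measure was log2((b + 1)/(a + 1)) of CPM, which understates changes of low genes, for transcripts with at least 1 CPM in a compared library.

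The authors' small RNA files give deposited counts of reads per peak, none under 4, with a position relative to the start codon. Which end of a read that position marks was not checked. A log2 fold change for each open reading frame was taken as the authors deposited it. Their open reading frame lists and the liver tables were not used.

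Genes were named by a rule: in each peak list the 10 members with most reads at 1 peak, the members at shared or facing positions, in each comparison the 5 highest and 5 lowest ratios from 10 CPM and any past 2-fold, the 10 with most CPM in control, those past 1.5-fold in both trans-RNA libraries, the corepressor list and members with a textbook role (ZNF335, ZNF521, ZNF91, ZNF462, ZNF148, ZNF24, ZNF318 and ZNF622). Members named for a promoter or for capped 5′ UTR peaks (ZNF287, ZNF397, ZNF718, ZNF337) were chosen after their values were seen. So were ZNF366 at a shared position, ZNF830 with a peak near its start codon, and ZNF740. Promoters, chromosomes and neighbouring genes came from RefSeq GRCh38.p14. The planned search for zinc fingers in proteins was not run, since no protein sequences were used. Python 3.11.15, pandas 2.3.3, SciPy 1.17.1 and Matplotlib 3.10.9 were used.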

Additional observations from a re-analysis of the deposited data

How the results depend on the processing

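No paired analysis was possible because each group holds 1 library. Counts of members at least 2-fold higher and lower are given in the order starvation against control, trans1 and trans2 against starvation, then trans1 and trans2 against control; they were 3 and 1, 2 and 2, 3 and 1, 5 and 1, and 1 and 1. The start window alone gave 11 and 8, 9 and 6, 10 and 5, 10 and 6, and 7 and 3, with medians of -0.20 in the first comparison and 0.19 in the third. It reversed ZNF354B to -0.54 (starvation), -1.04 (trans1) and -0.17 (trans2) against control, ZNF346 to 0.13 in trans2 against control, and, in trans1 against starvation, ZNF326 to -0.00527 and ZNF335 to 0.40. The stop window alone gave 6 and 14, 10 and 7, and 13 and 4 in the first 3 comparisons, 14 lower in the fourth, and 8 and 9 in the fifth. Its medians were 0.0249 in trans1 and 0.21 in trans2 against starvation and -0.12 and -0.0493 against control, the last a reversal. It reversed ZNF557 (-1.45), ZNF678 (-0.33) and ZNF766 (-0.62) in starvation against control, ZNF557 (1.14) in trans1, and ZNF473 (0.63) and ZNF766 (0.82) in trans2 against starvation. The windows hold fewer reads. A 1.5-fold rule gave 9 and 6, 15 and 8, 12 and 4, 18 and 8, and 10 and 3. A pseudocount of 0.1 CPM gave 2 lower in the first and 6 higher in the third comparison, and 5 CPM gave 0 and 1 in the second, 0 higher in the third, and 1 and 0 in the fourth. At least 10 CPM left 1 higher in the second. Without the highest position 3 were lower in the first, and frame shares were 76.7%, 73.7% and 67.2% in control, starvation and trans1. Trans1 and trans2 reads summed gave 0 higher and 1 lower in the second comparison, and 0 higher in the third. At least 10 CPM in every library put 9.13% of trans1 start window reads before the start codon.

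The following 3 settings were chosen after seeing the data. Reads at 8 or more positions in every library left 1 higher in the first, 1 higher and 0 lower in the second, 0 lower in the third, 2 higher in the fourth and 0 higher in the fifth comparison. Leaving out ZNF354B left 0 higher in the fifth. Region by recovered coding length, with ZNF354B kept in, put 14.1% of total sense peaks in the coding sequence and 78.9% in the 3′ UTR.

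A minimum of 10 reads, with ZNF354B kept in, left 52 cap sense peaks on 27 genes (5′ UTR 32.7%, 3′ UTR 51.9%). It left 56 total sense peaks on 16 genes (coding 14.3%, 3′ UTR 80.4%), 23 cap antisense peaks on 18 and 17 total antisense peaks on 15. Before that minimum ZNF354B alone had 30 cap and 42 total sense peaks in its 3′ UTR, so these sense shares lean on 1 gene. Keeping 1 peak per gene gave 82 cap sense peaks (5′ UTR 68.3%, coding 19.5%, 3′ UTR 12.2%) and 45 total sense peaks (coding 48.9%, 3′ UTR 35.6%). Without ZNF354B the cap sense shares were 67.3% (5′ UTR) and 17.8% (3′ UTR), and the 51 total sense peaks had 45.1% (coding) and 39.2% (3′ UTR). Within 10 or 50 nt, 54.8% of total sense peaks and 64.4% of cap antisense peaks were shared, against 41.9% and 44.4% at the same position. The sense values include ZNF354B. Without it 25.5% of total sense peaks were shared at the same position and within 10 or 50 nt alike. Over the values that answer a comparison, 87 moved, 1 reversed and 225 did not move, and over single genes 42 moved, 12 reversed and 523 did not. Zinc finger alternatives were not run.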
